A study of Mus musculus with 38 samples.

Results

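The glial and neural lineage factors are 9 genes, Olig1, Olig2, Sox2, Sox9, Sox10, Nfia, Tbx2, Nes and Ngfr, of the 55487 genes in each of 3 tables of read counts from mouse cells. They were named as a list and chosen with results on the glioma line GL261 in view, so their levels there and their differences with oxygen and co-culture in GL261 are given as a description, without a test. Tests are given for the reference cells, the microglial line BV2 and bone marrow-derived macrophages (BMDM). Adjusted p-values of other lineage genes in GL261 come from lists written with earlier results known, and are a description too. GL261 is a mouse glioma line, here stably carrying the plasmid pEGFP-N1, BV2 is an immortalised mouse microglial line, and the BMDM were primary cells from wild-type mice. The cells spent 16 h in normoxia (21% oxygen) or in hypoxia (less than 0.1%), alone or in direct contact with a partner, and all were then fixed in 3% glyoxal. GL261 was grown with BV2 at 2 GL261 cells per BV2 cell, and with BMDM at 1 GL261 cell per BMDM. GL261 libraries came from monoculture and from co-culture with BV2, in 4 groups of 2 libraries. BV2 had the same 4 groups of 2, and BMDM had 2 libraries per monoculture group and 3 per co-culture group. In a further experiment BV2 and BMDM without GL261 received the vehicle DMSO in normoxia or hypoxia, or 10 nM panobinostat, a histone deacetylase inhibitor, in hypoxia, with 2 libraries per group. The labels do not say how the partners were separated before RNA isolation, and GL261 from co-culture with BMDM was not analysed here.

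Olig1 and Olig2 are basic helix-loop-helix transcription factors that specify oligodendrocyte precursors in the neural tube and forebrain, and Sox10 works with them to switch on myelin genes. Sox2 holds neural stem cells in an undifferentiated state, while Sox9 and Nfia drive the switch from making neurons to making glia. Nes encodes nestin, an intermediate filament of neural progenitors, Ngfr encodes the low-affinity neurotrophin receptor p75 of neural crest and Schwann cells, and Tbx2 encodes a T-box repressor. Several of these genes are also used to describe glioma cells. Under low oxygen, hypoxia-inducible factors are stabilised and bind a short core motif, spelled ACGTG or GCGTG, near many of their target genes.

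In GRCm38 with the GENCODE M21 annotation, Olig2 (ENSMUSG00000039830) lies at chr16:91225457-91228677 on the + strand, and Olig1 (ENSMUSG00000046160) follows on the same strand at chr16:91269772-91271933. Sox2 (ENSMUSG00000074637, chr3:34650405-34652461) and Nes (ENSMUSG00000004891, chr3:87971078-87980451) lie on the + strand, as do Nfia (ENSMUSG00000028565, chr4:97772734-98118874), Tbx2 (ENSMUSG00000000093, chr11:85832551-85841948) and Sox9 (ENSMUSG00000000567, chr11:112782224-112787760). Sox10 (ENSMUSG00000033006, chr15:79154908-79165240) and Ngfr (ENSMUSG00000000120, chr11:95568818-95587735) lie on the - strand. The single exon of Olig1 shares 157 bases with the opposite-strand gene Gm15966, whose highest count in a GL261 library was 1. Sox2 lies inside the span of Sox2ot on the same strand without sharing exon sequence.

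RefSeq promoter windows (GRCm38.p6) of 250 bases before the gene start were found for 5 of the 9 genes, Olig2, Sox2, Nfia, Nes and Ngfr. Those of Olig2, Sox2 and Ngfr are printed because these genes had different levels in hypoxic and normoxic GL261 libraries, Olig2 lower and the others higher. Those of Olig2 and Ngfr are cut where the GENCODE gene begins, and the Sox2 window ends before the GENCODE start given for that gene. The Nfia window, chr4:97581693-97581942, lies far upstream of the GENCODE start, so its letters are not described here. Capitals mark matches to ACGTG or GCGTG on either strand, so that CACGT and CACGC are matches on the opposite strand.
Olig2, chr16:91225300-91225456, + strand: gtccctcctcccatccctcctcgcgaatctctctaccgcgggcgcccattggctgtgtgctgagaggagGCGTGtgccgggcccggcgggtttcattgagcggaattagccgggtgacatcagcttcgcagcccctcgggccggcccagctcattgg
Sox2, chr3:34649745-34649994, + strand: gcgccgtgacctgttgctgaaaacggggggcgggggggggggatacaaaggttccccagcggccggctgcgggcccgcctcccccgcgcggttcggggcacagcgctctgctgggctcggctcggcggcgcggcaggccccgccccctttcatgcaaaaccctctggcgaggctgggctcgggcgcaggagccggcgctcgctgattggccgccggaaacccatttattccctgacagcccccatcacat
Ngfr, chr11:95587736-95587948, - strand: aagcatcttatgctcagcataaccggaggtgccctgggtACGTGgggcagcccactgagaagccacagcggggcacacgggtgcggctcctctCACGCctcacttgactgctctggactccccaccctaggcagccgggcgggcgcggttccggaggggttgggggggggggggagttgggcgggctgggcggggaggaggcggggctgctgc
The whole Ngfr window held 1 match to ACGTG and 1 to GCGTG, the Olig2 window held 1 to GCGTG, and those of Sox2 and Nes held neither. Of 32851 windows of the same length, 16.57% held ACGTG and 28.16% held GCGTG. A match describes the letters only.

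GL261 libraries held 15410976 to 27238933 counts, and all 38 libraries held 9634700 to 27238933, so that a floor of 3 counts per library corresponds to 0.110 to 0.311 CPM (counts scaled to a common library size). Such floors cover counting error only. Levels are CPM scaled by trimmed-mean (TMM) library factors unless plain CPM is named. Myeloid markers were near 0 in GL261: the summed plain CPM of 14 markers was 5.07 to 13.1 in monoculture, against 4126 to 5498 in BV2 monoculture, and 4 to 8 of the 14 had no count in a GL261 monoculture library. In GL261 from co-culture the sum was 34.9 to 52.4 in normoxia and 10.1 to 17.2 in hypoxia. The median level of 121 BV2-specific transcripts was 0.915% and 0.630% of that in BV2 in the normoxic GL261 co-culture libraries, and 0.256% and 0.218% in the hypoxic ones. Those transcripts have at least 20 plain CPM in BV2 monoculture and at least 100-fold more there than in GL261, with 0.5 CPM added to both. The percentages use plain CPM too.

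In normoxic GL261 monoculture the 8 detected genes spanned levels per exon length from Sox10, the highest, to Nfia, the lowest. The level per kilobase was 395 CPM per kb for Sox10, 186 for Sox2, 130 for Nes, 104 for Olig1, 64.2 for Ngfr, 48.8 for Tbx2, 24.4 for Olig2 and 10.7 for Nfia. Neighbours in this order did not overlap between libraries except Nes and Olig1, where Olig1 ran from 73.0 to 135 CPM per kb. Under hypoxia the order changed in its middle: Sox10 at 279 and Sox2 at 270 CPM per kb overlapped, Nes at 123 and Ngfr at 115 overlapped, and Tbx2 at 18.4, Olig1 at 12.7, Olig2 at 8.17 and Nfia at 8.09 followed. Olig2 and Nfia overlapped there. Olig1 stood in the fourth place in normoxia and in the sixth in hypoxia. In the hypoxic co-culture Sox2 had the highest mean, at 287 CPM per kb, with libraries that overlapped those of Sox10 at 247.

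**Figure D1:**
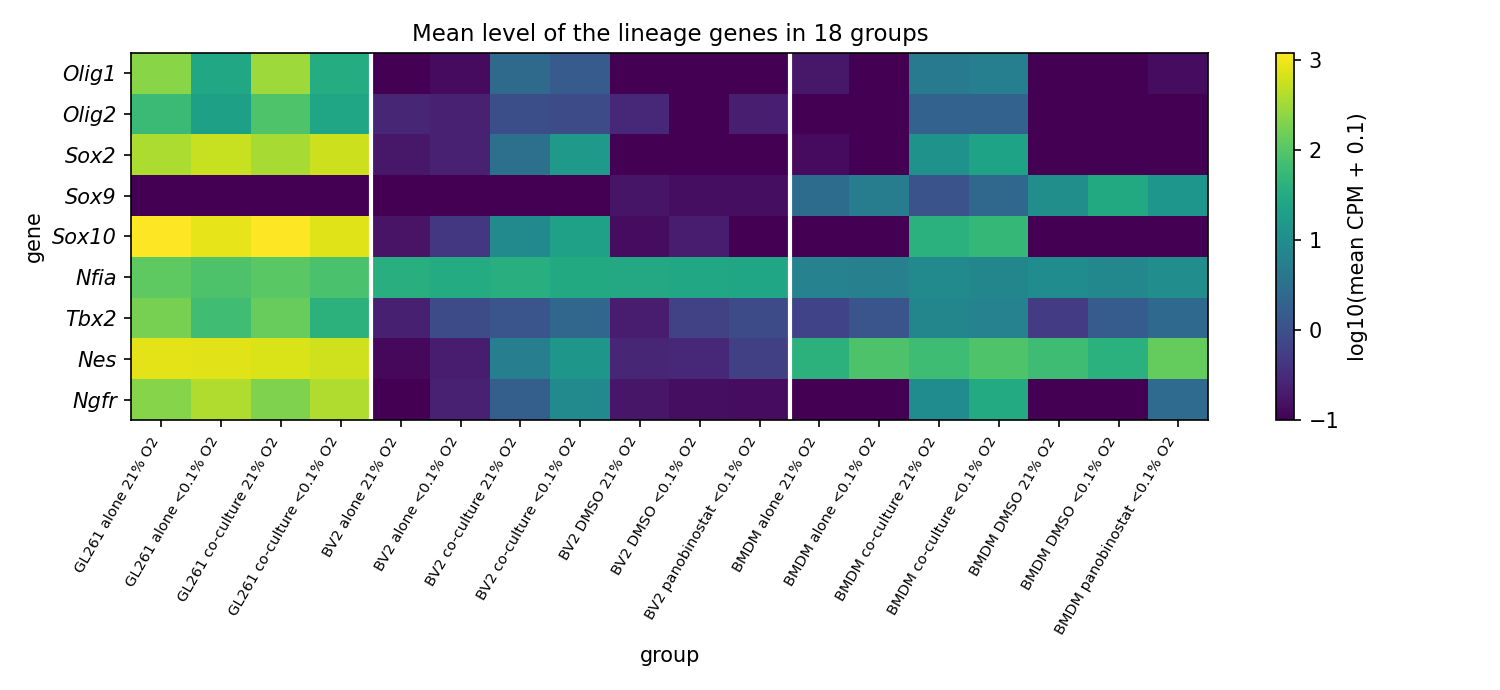
Mean level of each of the 9 genes in 18 groups, as log10 of mean CPM plus 0.1 (colour). White lines separate GL261, BV2 and BMDM. Sox10, Sox2 and Nes are brightest in GL261, Sox9 is clearly above the floor in BMDM, and Nfia in every group.

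Sox9, which drives gliogenesis in the embryonic nervous system, had no count in any GL261 library. Over the 8 GL261 libraries this is 0 of 148688667 counts, which allows a level of up to 0.0202 CPM. The BV2 libraries of the same table also held 0, and over all 16 libraries the count was 0 of 298406032. The nearest protein-coding neighbours were not both empty: Slc39a11 had 409 to 664 counts in GL261 libraries, while the potassium channel gene Kcnj2 had 0 to 7 there and 332 to 1225 in BV2 monoculture. In the panobinostat experiment Sox9 had 0 or 1 count in each BV2 library.

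Under hypoxia in GL261 monoculture, the oligodendrocyte-lineage factors and Tbx2 were the genes with the largest lower levels, and Ngfr and Sox2 were higher. Across the genome 6777 of 15189 tested genes were called at an adjusted p below 0.05 (44.6%: 23.2% higher and 21.4% lower), with edgeR's quasi-likelihood test and Benjamini-Hochberg adjustment. Of the 8 members tested, 2 were called higher and 4 lower, and the rule used this contrast, so nothing is read from that count. The members' median log2 fold change was -0.45, against -0.03 over all genes. The count was between 4 and 7 under the other settings tried and 5 or 6 with 1 library left out.

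Olig1 had 158 and 293 CPM in the normoxic monoculture libraries and 26.1 and 29.0 in the hypoxic ones. In co-culture with BV2 it had 253 and 359 CPM in normoxia and 27.0 and 41.0 in hypoxia. Every hypoxic library was below every normoxic library in both settings. The log2 fold change was -3.03 (SE 0.30) in monoculture and -3.17 (SE 0.30) in co-culture, the largest in size of the 8 genes in both.

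Olig2, the neighbouring gene and partner factor, had 44.5 and 78.8 CPM in normoxic monoculture and 21.3 and 20.02 in hypoxia. In co-culture it had 76.4 and 106 CPM in normoxia and 22.5 and 29.4 in hypoxia. The groups did not overlap in either setting, and the log2 fold change was -1.57 (SE 0.25) in monoculture and -1.82 (SE 0.25) in co-culture. In normoxia the second library was the higher one for both Olig genes, alone and with BV2.

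Sox10, which activates myelin genes and marks neural crest derivatives, had 1125 and 1286 CPM in normoxic monoculture and 764 and 938 in hypoxia. In co-culture it had 1192 and 1226 CPM in normoxia and 690 and 817 in hypoxia. All hypoxic libraries were lower, with a log2 fold change of -0.50 (SE 0.16) alone and -0.68 (SE 0.16) with BV2. Sox2, the stem-cell factor, moved the other way. It had 330 and 434 CPM in normoxic monoculture and 501 and 611 in hypoxia, and in co-culture 334 and 379 against 539 and 643. All hypoxic libraries were higher, and the log2 fold change was 0.54 (SE 0.17) alone and 0.73 (SE 0.17) with BV2.

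Nfia, a nuclear factor I protein that promotes astrocyte formation, had 119 and 114 CPM in normoxic monoculture and 79.8 and 96.4 in hypoxia, so the groups did not overlap. In co-culture it had 95.1 and 125 CPM in normoxia and 71.5 and 92.5 in hypoxia, again without overlap but with a gap of only a few CPM. Its log2 fold change was -0.40 (SE 0.17) alone and -0.42 (SE 0.17) with BV2.

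Tbx2, a repressor best known from cell-cycle and developmental control, had 187 and 167 CPM in normoxic monoculture and 58.6 and 74.8 in hypoxia. With BV2 it had 148 and 122 CPM in normoxia and 37.4 and 46.9 in hypoxia. No library overlapped between the oxygen levels, and the log2 fold change was -1.41 (SE 0.17) alone and -1.68 (SE 0.17) with BV2.

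Nes had 813 and 852 CPM in normoxic monoculture and 941 and 631 in hypoxia. With BV2 it had 689 and 710 CPM in normoxia and 702 and 532 in hypoxia. The hypoxic libraries lay on both sides of the normoxic ones in monoculture and overlapped them in co-culture, and the log2 fold changes were -0.08 (SE 0.19) and -0.18 (SE 0.19). Without the second hypoxic library of each setting the sign of the difference turned, to 0.19 in monoculture and 0.03 in co-culture.

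Ngfr, the p75 receptor, had 218 and 224 CPM in normoxic monoculture and 464 and 331 in hypoxia. With BV2 it had 224 and 174 CPM in normoxia and 435 and 356 in hypoxia. Every hypoxic library was higher than every normoxic one, with a log2 fold change of 0.84 (SE 0.19) alone and 0.99 (SE 0.19) with BV2. The monoculture and co-culture comparisons have separate libraries but share an estimate of the spread. The rule used both, so co-culture is not an independent repeat. In co-culture 7965 of 15189 genes were called (52.4%: 26.8% higher and 25.6% lower). Of the 8 members 2 were called higher and 4 lower, and nothing is read from that count either.

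**Figure D2:**
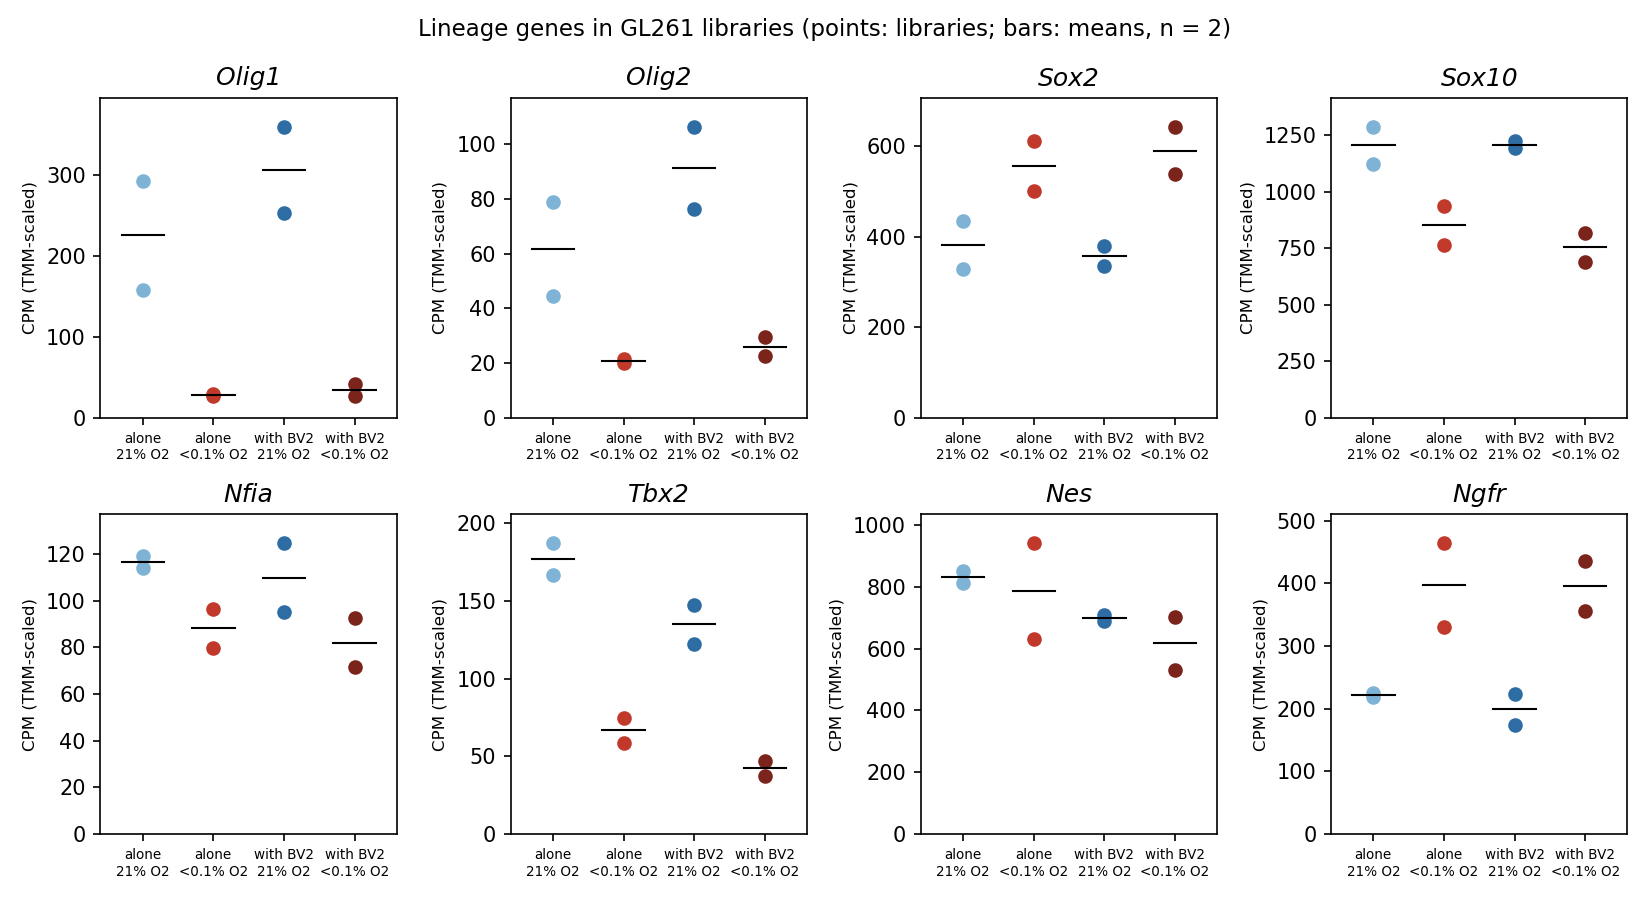
Levels (CPM, TMM-scaled) of the 8 detected genes in 8 GL261 libraries, by group. Points are libraries and bars are means of 2. Olig1, Olig2 and Tbx2 lie lower at below 0.1% oxygen, Ngfr and Sox2 higher, and the Nes libraries overlap.

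**Figure D3:**
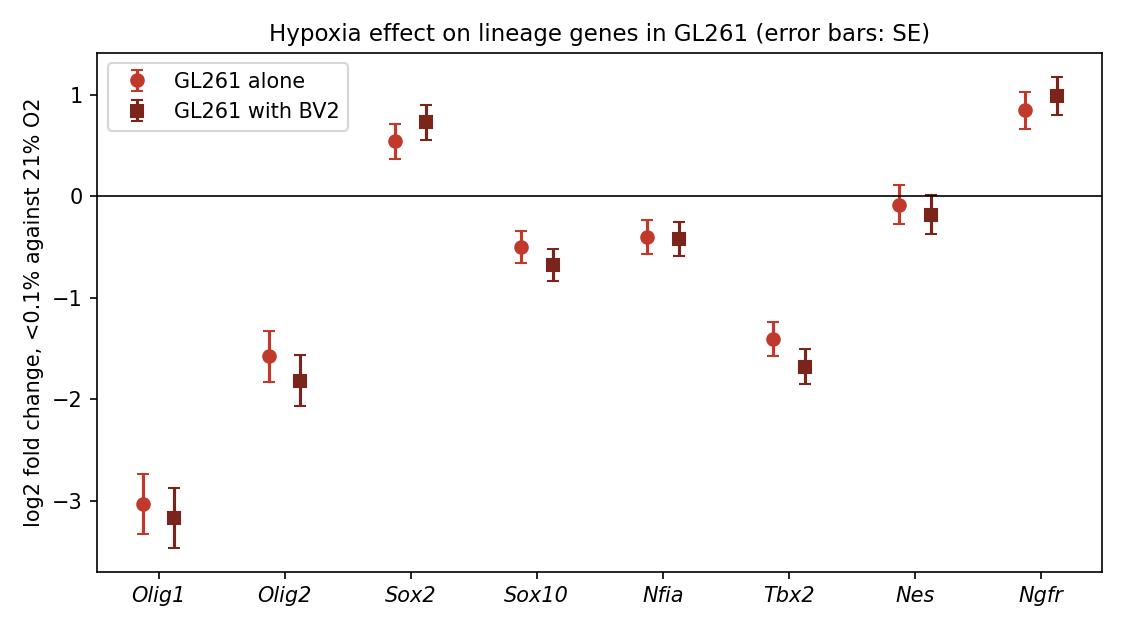
Log2 fold change of hypoxia against normoxia for 8 genes in GL261 alone (circles) and in GL261 with BV2 (squares), with SE. Olig1 is the lowest at -3.03 and -3.17, and Ngfr the highest at 0.84 and 0.99.

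Growth with BV2 was followed by small differences in these genes. In normoxia 78 of 15189 genes were called between co-culture and monoculture (0.514%), with no member among them, and in hypoxia 211 (1.39%), again with no member. Tbx2 was lower with BV2: no co-culture library reached a monoculture one at either oxygen level, and the log2 fold change was -0.39 (SE 0.16) in normoxia and -0.66 (SE 0.17) in hypoxia. Olig1 and Olig2 had higher means with BV2, but their libraries overlapped at normoxia. The log2 fold changes in normoxia were 0.44 for Olig1 and 0.57 for Olig2, and in hypoxia they were 0.31 and 0.33. Without the second hypoxic co-culture library the hypoxic difference of Olig1 became -0.03. Nes was lower with BV2 in normoxia without overlap, at -0.25, and at -0.35 in hypoxia with overlap. The difference of the hypoxia effect between co-culture and monoculture ran from -0.27 for Tbx2 to 0.19 for Sox2 over the 8 members. No gene was called in that contrast (0%), with 1354 genes at an unadjusted p below 0.05. DESeq2 called 47 genes and a fit without the filter on low counts 73. In bulk RNA, fewer cells expressing a gene and less of its RNA per cell cannot be told apart.

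Other genes of these lineages were taken from lists of markers, members excluded. The lists were written with earlier results of these data known, and the genes named were picked by size among the calls in monoculture hypoxia. Their values and adjusted p-values are thus a description. The list counts stand beside 44.6% of all genes called in monoculture hypoxia and 52.4% in co-culture hypoxia. Of 26 oligodendrocyte-lineage genes 17 were tested in GL261, and in monoculture hypoxia 13 were called lower and 1 higher, with a median log2 fold change of -0.78 against -0.03 for all genes. Cnp, an enzyme of myelin membranes, fell from 184 ± 11.5 to 63.8 ± 0.277 CPM (SD, n = 2 each, log2 fold change -1.53, SE 0.14, adjusted p = 1.6e-05 in edgeR). Bcan, a proteoglycan of the brain matrix, fell from 74.2 to 24.2 CPM, and Lhfpl3 fell from 39.1 to 18.9. Zfp536 was the gene called higher, from 54.2 to 81.6 CPM (adjusted p = 0.0058 in edgeR). Without the second normoxic library fewer genes of the list were called. Such fits leave 1 library in a group, and the share of all genes called in them is not given here. Such drops are therefore not read as a trait of a list. In co-culture 9 were lower and 2 higher, beside 25.6% of all genes lower and 26.8% higher, with a median of -0.67. Fewer were called without the second normoxic co-culture library.

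Of 19 astrocyte genes 17 were tested, with 6 lower and 1 higher in monoculture hypoxia and a median of -0.11. These 7 calls among 17 are near the 44.6% of all genes. S100b, a calcium-binding protein of glia, fell from 704 ± 78.9 to 182 ± 64.2 CPM (log2 fold change -1.96, SE 0.24, adjusted p = 8.4e-05 in edgeR). Sparcl1, a secreted matrix protein of astrocytes, fell from 636 to 202 CPM and the gap junction gene Gja1 from 26.8 to 8.82. Gli3, a Hedgehog effector, rose from 67.5 to 116 CPM. In co-culture 8 astrocyte genes were lower and 4 higher, and fewer were called without the first normoxic co-culture library.

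The neural crest and Schwann cell list was split: of 13 tested genes of 18, 6 were higher and 5 lower in monoculture hypoxia, with a median of 0.07. Ets1 rose from 69.9 ± 5.22 to 318 ± 87.6 CPM (log2 fold change 2.19, SE 0.21, adjusted p = 2.2e-05 in edgeR), Egr2, a regulator of myelination in Schwann cells, rose from 4.16 to 14.3, and Zeb2 from 127 to 279. Pmp22 fell from 75.7 to 43.4 CPM and the neuregulin receptor Erbb3 from 785 to 466. In co-culture 4 were higher and 6 lower, and fewer were called when the second normoxic co-culture library was left out.

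The neural stem and progenitor list had 10 of 19 genes tested, of which 2 were higher and 3 lower in monoculture, again near the 44.6% of all genes, with a median of -0.03. Without either normoxic library, or without the first hypoxic one, fewer were called. Hes1, a Notch target that maintains progenitors, rose from 13.8 to 36.4 CPM (adjusted p = 0.00018 in edgeR) and Notch1 rose from 215 to 310. Sall2 fell from 57.1 to 27.7 CPM and Vim, another intermediate filament, from 7036 to 5028. The calls of Vim and Notch1 were lost in other fits, including that of the 2 groups alone (adjusted p = 0.158 and 0.0521 in edgeR). Of 27 neuronal genes 10 were tested, with 1 higher and 3 lower and a median of 0.29, the opposite sign to most of the calls. Tubb3 fell from 78.8 to 39.2 CPM and Map2 from 154 to 105, and Prox1 rose from 16.0 to 24.5. The Map2 call was lost without the second normoxic library (adjusted p = 0.199 in edgeR) or the second hypoxic one (0.100), and the Prox1 call without the first normoxic (0.153) or first hypoxic one (0.0583). In co-culture Map2 had 150 CPM in normoxia and 157 in hypoxia, which overlapped.

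Among 15 genes of neurotrophin signalling, to which Ngfr belongs, 13 were tested, with 2 higher and 4 lower in monoculture hypoxia and a median of -0.02. These 6 calls among 13 are near the 44.6% of all genes. Fewer were called without the first hypoxic library. Maged1, an adaptor of the p75 receptor, fell from 973 ± 38.6 to 315 ± 23.0 CPM (log2 fold change -1.63, SE 0.17, adjusted p = 3e-05 in edgeR), while Kidins220, a scaffold of neurotrophin receptors, rose from 126 to 223 CPM. Arhgdia fell from 664 to 429. Of 16 other Sox genes 6 were tested: Sox12 fell from 46.5 to 25.4 CPM and Sox6 rose from 236 to 346.5, with 1 higher and 2 lower in all. Without the first normoxic library the calls of Arhgdia (adjusted p = 0.0655 in edgeR) and Sox6 (0.145) were lost, and that of Sox6 also without the first hypoxic one (0.108). Of 14 other T-box genes 5 were tested, with 1 called higher, a call lost without any of 5 libraries. The myeloid list had 9 of 14 tested. Several of these were near the floor in monoculture, such as Csf1r with 0.182 CPM in normoxia and 0.359 in hypoxia. They passed the filter on low counts only through co-culture groups, so no calls are counted for this list.

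Between co-culture and monoculture 0.514% of all genes were called in normoxia and 1.39% in hypoxia. Of the lists, 1 of 17 oligodendrocyte-lineage and 1 of 13 neural crest genes were called at each oxygen level. In normoxia 0 of 17 astrocyte genes and 1 of 13 neurotrophin genes were called. In hypoxia 3 of 17 astrocyte genes and 1 of 10 stem and progenitor genes were called. The genes named here were chosen after their values were seen. Mbp, myelin basic protein, had 1159 ± 121 CPM in normoxic monoculture and 595 ± 52.7 with BV2, and 623 ± 54.3 in hypoxic monoculture and 231 ± 33.7 with BV2. The log2 fold change with BV2 was -0.96 (SE 0.16, adjusted p = 0.025 in edgeR) in normoxia and -1.43 (SE 0.16, adjusted p = 0.0020 in edgeR) in hypoxia. The hypoxic call held under all alternatives run, and the normoxic one was lost without any 1 of the 4 normoxic libraries. Gfap, the astrocyte filament, was higher with BV2 in hypoxia (12.8 against 5.56 CPM, adjusted p = 0.038 in edgeR), as was Aldoc (167 against 100.3 CPM, adjusted p = 0.038 in edgeR), while S100b was lower (82.9 against 182 CPM, adjusted p = 0.043 in edgeR). The median of the 17 astrocyte genes in that comparison was -0.18. Cd44 was higher with BV2 in hypoxia (317 against 120 CPM, adjusted p = 0.014 in edgeR), as was Egr2 (40.9 against 14.3 CPM). Bdnf was lower with BV2 in normoxia (8.18 against 20.6 CPM). Alternatives are not given here for Egr2 and Bdnf. The calls of Gfap, S100b and Cd44 were lost without the first hypoxic co-culture library and in the fit of the 2 groups alone. The summed myeloid markers were higher with BV2 at both oxygen levels, as given above. Several passed the filter on low counts only through co-culture groups, so their calls are not counted. The part of BV2 transcripts in the other differences was not tested.

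BV2 and BMDM showed how far the same genes are expressed outside the glioma line. In BV2 monoculture, of the 9 genes only Nfia exceeded 15 counts in a library. Nfia had 38.0 and 38.5 CPM in normoxic BV2 monoculture and 32.7 and 30.9 in hypoxia, without overlap, but the change missed the threshold (log2 fold change -0.27, SE 0.13, adjusted p = 0.078 in edgeR, where 61.9% of 14432 genes were called). In co-culture with GL261 it had 33.4 and 41.7 CPM in normoxia and 30.3 and 30.2 in hypoxia. This difference passed in edgeR (-0.32, SE 0.13, adjusted p = 0.037, with 67.3% of genes called) but not in DESeq2 (adjusted p = 0.068). Without the second normoxic co-culture library it was -0.14 (adjusted p = 0.481 in edgeR), and without either normoxic monoculture library the adjusted p was 0.0513 or 0.0519 in edgeR. In the panobinostat experiment Nfia had 24.6 and 32.6 CPM with DMSO in normoxia, 26.7 and 28.3 with DMSO in hypoxia, and 27.1 and 24.4 with panobinostat, so all 3 groups overlapped.

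Tbx2 was near the floor in BV2 and higher in hypoxia. In normoxic monoculture it had 3 counts in each library (0.127 and 0.134 CPM), and in hypoxia 15 and 11 counts (0.885 and 0.604 CPM). The groups did not overlap. No fold or test is given, since the normoxic libraries were at the floor and the gene passed the filter on low counts only through groups where it was higher. In the panobinostat experiment the DMSO libraries had 2 and 1 counts in normoxia and 7 and 7 in hypoxia, below the filter for testing. The level of GL261-specific transcripts in the BV2 monocultures was 0 to 0.0536% of that in GL261. With panobinostat the 2 libraries had 1 and 20 counts.

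In BMDM, Nes, Sox9 and Nfia were well above the floor of 3 counts. Every monoculture library held 64 or more counts of Nes and Nfia and 35 or more of Sox9. Nfia had 7.55 and 5.04 CPM in normoxic and 7.27 and 4.42 in hypoxic monoculture, which overlapped. Olig1, Olig2, Sox2, Sox10 and Ngfr had at most 2 counts in a BMDM monoculture library, and Tbx2 had 3 to 21. In the panobinostat experiment Tbx2 had 3 and 10 counts in BMDM with DMSO in normoxia. It had 32 and 5 with DMSO in hypoxia, and 43 and 27 with panobinostat. Compared per kilobase, Nes stood at 6.56 CPM per kb in normoxic BMDM against 130 in normoxic GL261, and Sox9 at 0.644.

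Nes was higher in hypoxia in BMDM alone. It had 39.7 and 44.5 CPM in normoxia and 82.6 and 95.4 in hypoxia, without overlap, with a log2 fold change of 1.08 (SE 0.19, adjusted p = 0.0026 in edgeR, where 23.9% of 14806 genes were called). Left out in turn, 9 of 10 libraries kept the call, and without the first normoxic monoculture library the adjusted p was 0.0501 in edgeR. In co-culture with GL261, Nes had 60.8, 61.9 and 74.0 CPM in normoxia and 81.2, 82.1 and 109 in hypoxia, again without overlap (0.47, SE 0.15, adjusted p = 0.032 in edgeR, where 34.8% were called). That call was lost in the fit of the 2 groups alone (adjusted p = 0.066 in edgeR) and without any of 6 libraries (adjusted p of up to 0.122 in edgeR). GL261, which expresses Nes strongly, left more of its specific transcripts in the hypoxic co-culture libraries (1.72% to 6.28% of their GL261 level) than in the normoxic ones (1.29% to 3.70%). The ranges overlapped, and the hypoxic share was higher in each of the 3 pairs with the same number. The part of these in the co-culture values of Nes was not tested. In GL261 Nes overlapped between oxygen levels, and the difference between the cell types was not tested.

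Sox9 in BMDM had 3.12 and 2.20 CPM in normoxic and 4.73 and 5.39 in hypoxic monoculture. These groups did not overlap, but the log2 fold change of 0.92 missed the threshold (adjusted p = 0.077 in edgeR) and passed it in the fit of the 2 groups alone (0.90, adjusted p = 0.033 in edgeR). In co-culture it had 1.30, 0.859 and 0.868 CPM in normoxia and 2.41, 2.23 and 1.95 in hypoxia, and rose by 1.103 on the log2 scale (SE 0.32, adjusted p = 0.020 in edgeR). The call was lost in the fit of those groups alone (adjusted p = 0.054 in edgeR) and without normoxic co-culture library 2 or 3 (0.061 and 0.0559). Between co-culture and monoculture Sox9 was lower at both oxygen levels without overlap. In normoxia the log2 fold change was -1.38 (adjusted p = 0.071 in edgeR, where 1.64% of genes were called, and 0.037 in DESeq2, which called 634 genes). In hypoxia it was -1.20 (SE 0.32, adjusted p = 0.046 in edgeR, where 7.11% were called). The hypoxic call was lost under 14 of 16 alternatives, with the replicate block among them (adjusted p = 0.066 in edgeR). GL261 held no Sox9 count, and GL261 transcripts made up part of these co-culture libraries; their part in the lower Sox9 level was not tested.

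**Figure D4:**
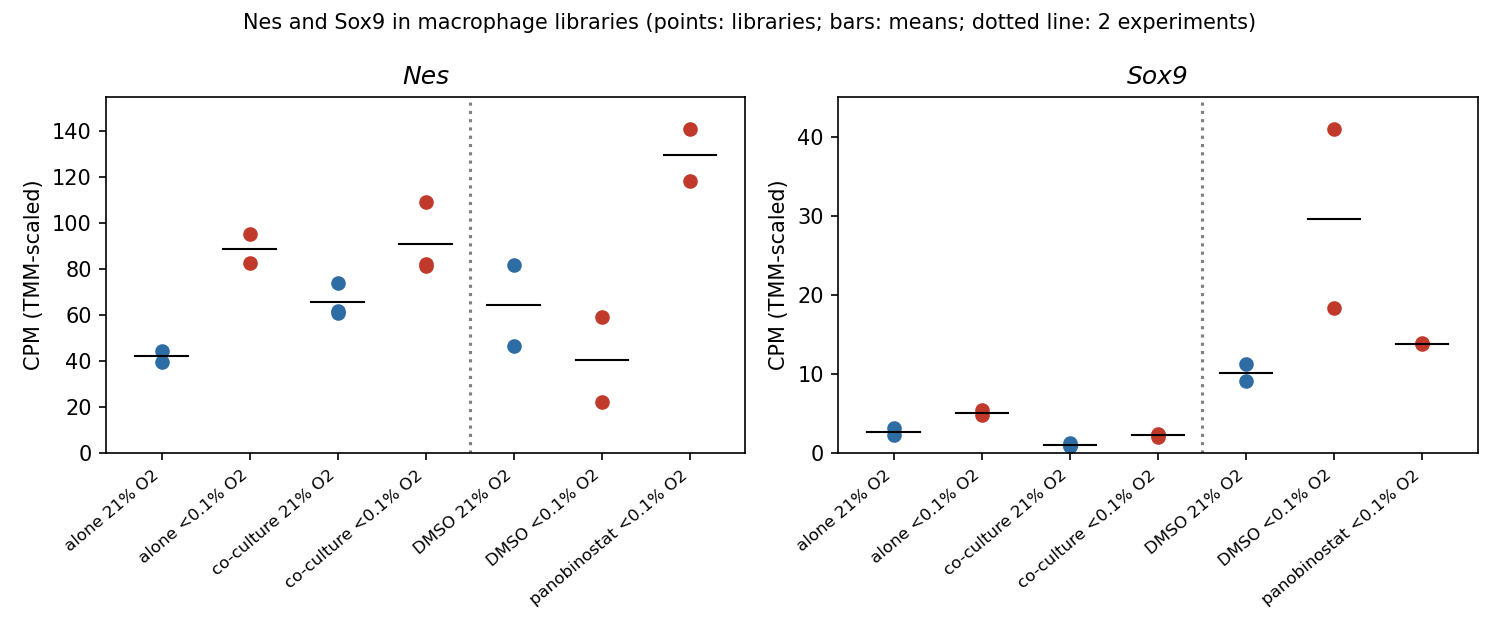
Nes and Sox9 levels (CPM, TMM-scaled) in BMDM libraries, with means as bars; a dotted line separates the co-culture experiment from that with DMSO and panobinostat. Hypoxic Nes is above normoxic Nes to the left of the line and overlaps with it to the right.

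In the panobinostat experiment the hypoxia comparison with DMSO called 72 of 14914 genes in BMDM (0.483%), and 5 of the 9 members were tested. Nes had 46.7 and 81.8 CPM in normoxia and 22.2 and 59.0 in hypoxia, so the libraries overlapped and the mean lay the other way from the co-culture experiment (log2 fold change -0.67, adjusted p = 0.431 in edgeR). Sox9 had 11.2 and 9.13 CPM in normoxia and 18.3 and 41.0 in hypoxia, without overlap, at 1.54 (adjusted p = 0.110 in edgeR, 0.019 in DESeq2). Its levels were higher than those of the co-culture experiment in every group, and the 2 experiments were deposited as separate tables. The summed plain CPM of the myeloid markers ran from 21263 to 30283 in the DMSO normoxic libraries, from 4110 to 12855 in the DMSO hypoxic ones and from 1429 to 6257 with panobinostat, so these differed beside every value of this experiment, and their part in it was not tested.

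With panobinostat in hypoxia no gene was called in BMDM against DMSO (0%; 3868 genes at an unadjusted p below 0.05, and 2221 called by DESeq2). Nes had 141 and 118 CPM with panobinostat, above both DMSO libraries at 22.2 and 59.0 (log2 fold change 1.68, SE 0.52, adjusted p = 0.117 in edgeR, 0.022 in DESeq2 and 0.042 with the replicate block in edgeR). Sox9 had 13.9 and 13.7 CPM, below both DMSO libraries at 18.3 and 41.0 (log2 fold change -1.101, adjusted p = 0.172 in edgeR). Ngfr had no count in either DMSO hypoxic library and 22 and 52 counts with panobinostat (1.45 and 3.78 CPM). The panobinostat mean of 2.61 CPM is at least 20.1-fold above a floor of 3 counts over the 2 DMSO libraries (0.130 CPM). This bound on the mean covers counting error only, and the lower library lies nearer the floor. In this experiment Ngfr had counts in BMDM only with panobinostat, so no test is given.

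Transcripts of the glioma line were present in the co-culture libraries of both myeloid cells, and these genes were read against that background. The level of GL261-specific transcripts (at least 20 CPM in GL261 monoculture and 100-fold above the partner), as a median percentage of their level in GL261 monoculture at the same oxygen, gives the share. This share and the percentages of members below use plain CPM. Over 230 such transcripts the share was 0.951% and 0.568% in normoxic BV2 co-culture and 2.07% and 2.36% in hypoxia. Over 146 it was 1.29%, 2.29% and 3.70% in normoxic BMDM co-culture and 1.72%, 3.22% and 6.28% in hypoxia. In the monocultures of both it was 0 to 0.0555%.

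Sox10, Sox2, Nes and Ngfr were close to that share in BV2 co-culture, and the other detected genes lay above it in hypoxia. Sox10 was at 0.944% and 0.508% of its GL261 level in normoxia and at 1.98% and 2.88% in hypoxia, and Sox2 at 1.04% and 0.593% in normoxia and 2.35% and 2.96% in hypoxia. Sox2, Sox10, Nes and Ngfr are among the specific transcripts, so they were set against the others. Olig1 was at 4.50% and 5.10% in hypoxic BV2 co-culture, with 2 and 1 of the 230 transcripts above it, and at 1.25% and 0.955% in normoxia, with 44 and 20 above. Olig2 was at 2.62% and 4.92% in hypoxia, with 46 and 1 above it, and at 1.61% and 1.19% in normoxia, with 13 and 6 above. Tbx2 was at 3.14% and 3.11% in hypoxia, with 24 and 43 above it, and at 0.807% and 0.449% in normoxia, with 155 and 169 above. Nfia, which BV2 expresses on its own, was at 29.5% to 35.5%.

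In hypoxic BMDM co-culture Olig1 stood furthest above the share of the 8 genes. In normoxia it was at 1.58%, 1.96% and 2.87% of its GL261 level, near the medians, and in hypoxia at 13.4%, 23.3% and 22.2%, with 1, 0 and 3 of 146 transcripts above it. In plain CPM it was 3.72, 4.62 and 6.76 in normoxia and 3.70, 6.42 and 6.12 in hypoxia, so the libraries overlapped. The GL261 monoculture libraries, to whose mean they were compared, had 159 and 311 plain CPM in normoxia and 25.1 and 30.1 in hypoxia. The GL261 in BMDM co-culture was not analysed here, so its own Olig1 level is not known. Olig2 was at 3.30%, 9.60% and 12.5% in hypoxic BMDM co-culture, with 8 to 21 transcripts above it. Tbx2 was at 4.65%, 4.79% and 18.6% there, with 7, 29 and 3 above it. Ngfr was at 3.13%, 6.11% and 14.2%, with 22, 16 and 8 above. Sox10 was at 1.52 to 1.64 times the median there and Sox2 at 1.06 to 1.25 times. Nes, which BMDM express on their own, was at 7.46% to 8.98% in normoxia and 9.66% to 14.3% in hypoxia, and Nfia, likewise, at 7.42% to 8.36% and 5.48% to 10.2%.

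**Figure D5:**
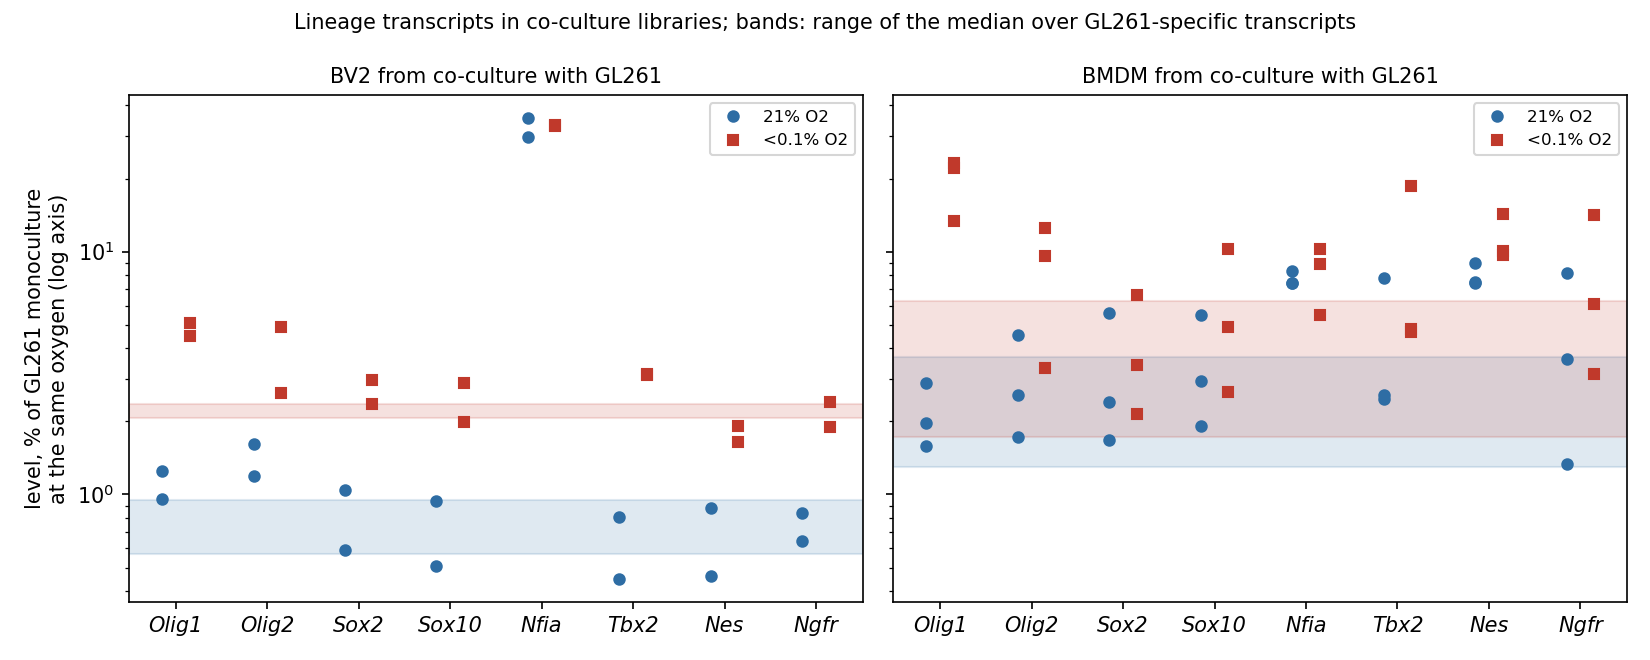
Level of 8 genes in BV2 and BMDM co-culture libraries as a percentage of their level in GL261 monoculture at the same oxygen (log axis); bands show the range of the median over GL261-specific transcripts. Nfia in BV2 (29.5% to 35.5%) and Olig1 in hypoxic BMDM (13.4% to 23.3%) lie above the bands. So do Nes in BMDM, Nfia in normoxic BMDM, Olig1 and Olig2 in BV2 at both oxygen levels, and Tbx2 in hypoxic BV2. In normoxic BV2 the lower Olig1 library is only just above its band.

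Over the 8 GL261 libraries the genes with the most similar profile (Pearson r of log2 CPM among 8426 genes) were Smarcd2 (0.995) and Lpcat1 (0.994) for Olig1, and Cldn11 (0.989) and Dynlt3 (0.989) for Olig2. They were Tcp11l2 (0.992) and Dagla (0.990) for Sox2, Cntnap1 (0.996) and Coasy (0.993) for Sox10, and Gnaq (0.972) and Atxn7l3b (0.966) for Nfia. For Tbx2 they were P4ha3 (0.988) and Cmtm5 (0.988), for Nes Mat2b (0.961) and Atf7ip (0.955), and for Ngfr Lactb (0.994) and Wdr76 (0.994). Among the members, Olig1 and Olig2 had a correlation of 0.98, Olig1 and Sox10 of 0.94, and Ngfr and Olig1 of -0.95, while Nes ran between -0.47 and 0.38 with the others. The libraries of Nes overlapped between oxygen levels. The correlations of the other members go with the difference between 4 hypoxic and 4 normoxic libraries of 1 line. All are given without a test.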

How the data were processed

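The members and the gene lists were chosen with earlier results of these data known. RNA from 38 libraries in 18 groups was sequenced as poly(A), stranded pairs of 151 bp per the labels' protocols, which describe the replicates of the BV2 and GL261 libraries as biological. Nothing in the sources used here says so for the other libraries, where p-values measure only the spread between these samples. The values are read counts per Ensembl gene as deposited by the authors. The submitters' processing notes name Trimmomatic 0.36, STAR 2.6, Picard 2.17.1 (BV2 and GL261 libraries), SAMtools, HTSeq 0.9.1, deepTools and the build mm10. How HTSeq used strand is not given in the sources used here, so reads of Olig1 and the opposite-strand Gm15966 may not be told apart. Symbols matched 55141 of 55487 identifiers. Replicates all differed by more than sampling noise (22 pairs, chi-square per degree of freedom 6.70 to 155.5).

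Counts were tested with edgeR 4.0.16 (R 4.3.3): TMM factors, the filter on low counts at its defaults (minimum count 10, total 15), one estimate of the spread for each cell type in each table, quasi-likelihood F tests and Benjamini-Hochberg adjustment over all tested genes at 0.05. The SE is the fold change divided by the root of F. The script was tested on simulated data. Named list genes were at most 3 per direction, chosen by size of change among calls in monoculture hypoxia whose mean log2 CPM was 4 or more and whose libraries did not overlap. A gene that this rule names is not reported here. Alternatives were DESeq2 1.42.0, its size factors in edgeR, no filter, a mean CPM of 5, a replicate block, the 2 groups alone, each library left out, and removal of partner-high genes. Replicate numbers come from the titles. For BMDM co-culture, 3 pairs of normoxic and hypoxic libraries had deviations correlated at 0.455, 0.246 and 0.407, so the numbers were taken to pair them there. The blocked fit changed no call between those groups.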

Additional observations from a re-analysis of the deposited data

Results flagged for a closer look

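Tbx2 differed in opposite directions with hypoxia in the 2 cell lines. Both hypoxic GL261 monoculture libraries (58.6 and 74.8 CPM) lay below both normoxic ones (187 and 167 CPM), while both hypoxic BV2 monoculture libraries (15 and 11 counts) lay above both normoxic ones (3 counts each). The hypoxia effect in GL261 minus that in BV2 was -3.95 on the log2 scale. No test is given: the GL261 contrast was used to choose the gene, so the difference counts as not tested. The BV2 side of it rests on normoxic libraries at the floor of 3 counts. The -3.95 is therefore not read as a size and gives no fold for BV2.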

How the results depend on the processing

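The size factors of DESeq2 in edgeR moved the median of all genes by under 0.1 on the log2 scale. The GL261 contrasts were used to choose the members, so nothing is read from their calls there. Those of Sox2 and Sox10 in monoculture were lost in the fit of the 2 groups alone. Most groups have 2 libraries, and BMDM co-culture groups have 3. Depth limits Tbx2 in BV2, which was at 3 counts in each normoxic monoculture library.

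Called genes between GL261 co-culture and monoculture in normoxia were 78, against 162 with DESeq2, 361 without the filter, 11 at a mean CPM of 5, 226 with the replicate block, 124 with the 2 groups alone, 13 without partner-high genes and 1 to 111 with 1 library left out. Without the filter 1 member, Olig2, was called. Nothing is read from this call or from that of Tbx2 named next. In hypoxia they were 211, against 459 with DESeq2, 737 without the filter, 654 with the replicate block, 20 with the 2 groups alone and 74 to 329 with 1 library left out. Tbx2 was then the 1 member called with DESeq2, without the filter and with the block, and 0 to 1 members were called with a library left out. The interaction gave 0, against 47 with DESeq2 and 73 without the filter. In BV2 the co-culture counts were 2152 in normoxia (1245 at a mean CPM of 5, 451 to 2373 with 1 library left out) and 2266 in hypoxia (1461 at that filter, 1438 without partner-high genes).

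In BMDM, monoculture hypoxia called 3542 genes (6289 with the 2 groups alone, 1288 to 4188 with 1 library left out). Co-culture in normoxia called 243 (634 with DESeq2, 1062 without the filter, 70 at a mean CPM of 5, 432 with the replicate block, 9 without partner-high genes, 3 to 417 with 1 library left out). Co-culture in hypoxia called 1053 (1733, 2141 and 313 under the first 3 of these, 231 with the 2 groups alone, 160 without partner-high genes, 4 to 1792 with 1 library left out). DMSO hypoxia called 72 (2260 with DESeq2, 3259 without the filter, 2127 with the block, 0 with the 2 groups alone, 0 to 611 with 1 library left out). Panobinostat called 0 (2221 with DESeq2, 66 with its size factors, 2867 without the filter, 53 at a mean CPM of 5, 2044 with the block). In BV2 DMSO hypoxia called 4980 (2920 to 4758 with 1 library left out) and panobinostat 1941 (4025 with the block, 292 to 2505 with 1 library left out). The cause was not tested. With DESeq2 the higher share of calls went from 62.8% to 51.2% in normoxic GL261 co-culture and from 97.2% to 57.0% in BMDM with DMSO.

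With 1 library left out, the Nes difference in GL261 ran from -0.37 to 0.19 in monoculture hypoxia and from -0.38 to 0.028 in co-culture hypoxia, and that of Olig1 with BV2 in hypoxia from -0.0295 to 0.58. Outside the BMDM co-culture pairs the replicate numbers were not taken as pairs. Mean correlations of same-numbered deviations were 0.18 in GL261, 0.034 in BV2 and, in the panobinostat experiment, 0.30 in BV2 and 0.45 in BMDM. The BMDM values of that experiment, 0.338 to 0.592, were in the range of those co-culture pairs or above it. Whether the numbers pair these libraries too is not known. The main fits have no block, and counts that moved with the block are given above.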
